A study of Homo sapiens with 6 samples.

Results

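The 47 genes described here encode the machinery of lysosomes and of autophagy in the cells of this series. They were taken from the gene table by their current symbols, 47 of 20263 genes in all. The rule uses no measured value, although the genes were chosen with earlier results of these data known. They comprise 3 transcription factors, 6 lysosomal membrane proteins, 13 lysosomal hydrolases including 1 precursor of hydrolase activators, 4 components of the proton pump, 10 genes of autophagosome initiation and membrane nucleation, 9 genes of the ATG8 family and its conjugation, and 2 cargo receptors. RNA sequencing compared 3 libraries of cells transfected with a LINC01518 overexpression vector, LINC01518 being a long non-coding RNA, with 3 libraries of cells that received the empty vector, and the study asked which genes this overexpression changes. Both groups are labelled as LNCaP, an established human prostate cancer cell line, given as hormone-dependent, and both carry a vector. The free-text design names MEG3 as the insert where the sample labels have LINC01518, so the groups go by the sample labels, and the level of the insert was not analysed here. Neither the duration of expression nor the use of a clone or a pool is given in the sources used here.

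Lysosomes are acidic organelles in which hydrolases break down proteins, lipids and glycans, and a proton-pumping V-ATPase in the lysosomal membrane keeps them acid. Macroautophagy delivers cytoplasm to them: a kinase complex around ULK1 and a lipid kinase complex around BECN1 start a membrane, the ATG conjugation enzymes attach ATG8 proteins such as LC3 to it, and receptors tie cargo to those proteins. The transcription factors TFEB, TFE3 and MITF bind a short motif in many of these promoters, and their activity is set largely by phosphorylation through mTORC1, a kinase complex that senses nutrients at the lysosome.

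The libraries held 38161544 to 42553688 counts, so that the limit of 3 counts that a count of 0 allows was 0.0705 to 0.0786 CPM, counts scaled to library size, for counting error only. The first principal component held 31.8% of the variance and separated the groups. Of 14 luminal prostate markers, 5, namely KLK3, KLK2, TMPRSS2, FOLH1 and TRPM8, were at 0 counts in all 6 libraries, which goes against the label for an androgen-responsive prostate line, so LNCaP is given here as a label. Of the other 9 markers, 8 were tested. KRT8 and KRT18, keratins of simple epithelia in general, were highest. KRT8 was the 1 marker called, and it was higher with overexpression (log2 fold change 0.29, edgeR adjusted p = 0.0187), and the CPM of the 14 markers summed to 2796 ± 94.3 with overexpression and 2405 ± 136 with empty vector (SD, n = 3 each). Separate cultures are not stated for the replicates, and a p-value here reflects library-to-library spread that may be only technical.

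Few of the 47 genes differed between the groups by the test. The gene of the protease cathepsin Z, CTSZ, was 1.35-fold higher with overexpression, and CD68, which encodes a heavily glycosylated protein of the lysosomal membrane, was 1.57-fold lower. RB1CC1, which encodes the scaffold FIP200 of the ULK1 complex, was 1.18-fold lower, just inside the threshold. The other 44 genes did not pass the test, and their log2 fold changes lay between -0.29 and 0.22.

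All 47 genes passed the filter on low counts, the lowest count of any of them in any library being 252. With edgeR, 3 of 47 genes (6.38%) had an adjusted p under 0.05, against 759 of all 13543 genes tested (5.60%). Of the 3, 1 was higher with overexpression, where 3.57% of all genes tested were called higher, and 2 were lower, where 2.03% were called lower. At an unadjusted p under 0.05 there were 12 of 47 genes (25.5%), against 23.6% of all genes. The 12 divided into 6 higher and 6 lower, where 12.3% of all genes were higher and 11.4% lower at that p. The 3 libraries of 1 group lay wholly apart from those of the other in CPM for 15 of 47 genes (31.9%), against 31.4% of all genes. The shares over both directions were close to their backgrounds. The median log2 fold change was 0.02 over the 47 genes and -0.0035 over all genes tested, and the median size of the fold change was 0.11 against 0.13. Of the 44 genes that were not called, 40 had a 95% interval of the log2 fold change within 0.5 either way, so a change of that size would lie outside their intervals. The exceptions were TFE3, NAGLU, MAP1LC3B and GABARAPL1, whose replicates spread most.

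**Figure D1:**
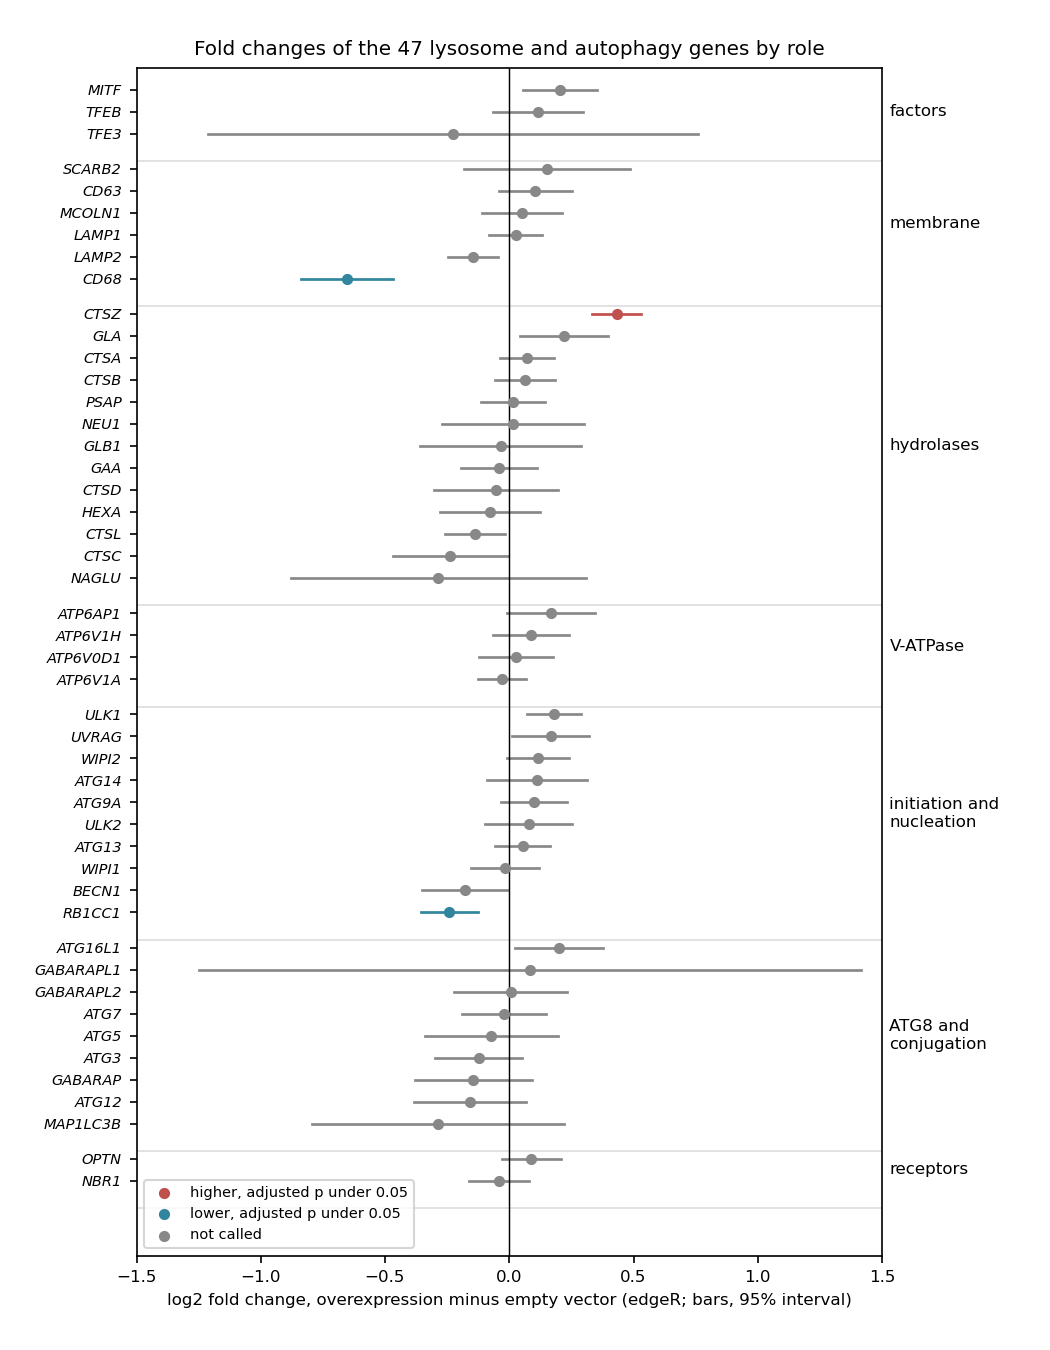
Log2 fold change of each of the 47 genes on the horizontal axis, LINC01518 overexpression minus empty vector, from edgeR, with bars for the 95% interval; rows are grouped by the role of the gene. CTSZ is the gene called higher, CD68 and RB1CC1 are called lower, and TFE3 and GABARAPL1 have the widest intervals.

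The 3 transcription factors that act on lysosomal and autophagy promoters did not pass the test. MITF, best known as the master factor of pigment cells, had 66.4, 67.7 and 66.5 CPM with overexpression, against 62.6, 57.2 and 54.2 CPM with empty vector. The groups did not overlap for MITF, but the difference missed the threshold (log2 fold change 0.20, SE 0.0638, adjusted p by edgeR 0.105). TFEB, the factor most often described as the switch for lysosome biogenesis, had 25.03, 24.7 and 24.2 CPM with overexpression, against 21.2, 24.9 and 22.1 CPM with empty vector. The groups of TFEB overlapped (log2 fold change 0.11, SE 0.0784, adjusted p by edgeR 0.419). TFE3, a close relative, had 107, 94.1 and 41.1 CPM with overexpression, against 92.4, 93.9 and 97.3 CPM with empty vector. The 41.1 CPM of overexpression replicate 3 stood far below the other 5 libraries, the SE was 0.376, and the log2 fold change of TFE3 of -0.23 became 0.09 without that library. The mRNA level of these factors says nothing about their phosphorylation, which was not measured.

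The motif these factors bind was looked for in the RefSeq promoter windows of GRCh38.p14, which run from 250 bases before to 50 bases after a gene's start, on both strands. Windows were found for 38 of the 47 genes; NAGLU, ATP6V1A, UVRAG, LAMP2, RB1CC1, PSAP, ATP6V1H, CTSB and HEXA were not matched. The 8-letter palindrome TCACGTGA was present in 6 of the 38 genes (15.8%), against 1.18% of all genes with a window and 0.98% of all 35116 windows. Its 6-letter core CACGTG was in 10 of 38 genes (26.3%), namely these 6 and ATG14, CD63, CTSD and NEU1, against 8.77% of all genes and 7.26% of windows. The longer form with a G before and a C after was in GAA and MCOLN1 (5.26% of the 38), against 0.421% of all genes and 0.353% of windows. Both shorter forms lie within the longer one, so the counts are nested. The 6 genes with the 8-letter motif are shown with 10 bases on either side, on the strand of the gene, because they hold the longest form of the motif found in more than 2 of the genes, and the capitals mark the motif.
GAA (chr17:80101539-80101566, plus strand): ctcccgccggTCACGTGAcccgcctctg
MCOLN1 (chr19:7522599-7522626, plus strand): ggctaccgggTCACGTGAccgaggcaca
LAMP1 (chr13:113297227-113297254, plus strand): gcggcgcagcTCACGTGAcaagcgctgc
CTSA (chr20:45891299-45891326, plus strand): gcgccggagtTCACGTGActcgtacaca
ATP6V0D1 (chr16:67481200-67481227, minus strand): ccccttatggTCACGTGAggcgcttgcg
ATG3 (chr3:112561941-112561968, minus strand): gagtctagtgTCACGTGAggccccggtg
GAA, MCOLN1 and LAMP1 each held a second copy in the same window. None of these 6 genes was called, where 5.60% of all genes tested were, and 6 genes are too few to differ from that share. Their log2 fold changes ran from -0.12 (ATG3) to 0.07 (CTSA). A match is a description of the letters in the window, not evidence of binding in these cells. The windows of the called genes CD68 and CTSZ held no CACGTG, and the called gene RB1CC1 had no window.

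Among the lysosomal membrane proteins, 1 of 6 genes was called (16.7%, against 5.60% of all genes tested), and it was lower with overexpression. CD68 is a member of the LAMP family that macrophages carry in quantity and that many other cells express at lower levels. It had 20.03, 23.4 and 20.1 CPM with overexpression, against 32.6, 34.3 and 32.9 CPM with empty vector. Every overexpression library was below every empty vector library. The fall was a log2 fold change of -0.65 (SE 0.0800, adjusted p by edgeR 0.00722), and CD68 was also called in all 6 fits that left out 1 library, at -0.73 to -0.61. In TPM, which is scaled for transcript length, it had 23.05 ± 1.95 TPM with overexpression and 36.6 ± 1.29 TPM with empty vector (SD, n = 3 each). The RNA came from whole cultures, so fewer cells that express CD68 and less CD68 RNA per cell cannot be told apart.

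Because CD68 also marks macrophages, 20 macrophage and leukocyte markers were read beside it. Of these, 12 were at 0 counts in every library, among them PTPRC, the pan-leukocyte antigen CD45, the macrophage receptors CD163, MRC1, MARCO and MSR1, the adaptor TYROBP and the complement genes C1QA, C1QB and C1QC. Only 3 had enough counts to test, CSF1R, CD14 and HLA-DRA, and 0 were called, where 5.60% of all genes tested were. These 3 genes are too few to differ from that share. The CPM of the 20 markers summed to 4.19, 4.60 and 3.63 with overexpression, against 4.198, 3.85 and 3.97 with empty vector. Most of that sum was CSF1R, at 2.38 to 3.33 CPM, well above the limit that a count of 0 allows. The other 7 markers with any counts reached at most 29 counts in a library. The summed level overlapped between the groups.

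CD68 lies on the plus strand of chromosome 17, at 7579467 to 7582113 (GRCh38, GENCODE 29), between 2 protein-coding genes on the same strand. A processed transcript, AC016876.2, overlaps it by 2558 bases on the same strand, and an antisense transcript, AC016876.1, by 150 bases; neither is in the count table, so their part in its count was not tested. EIF4A1, a translation initiation helicase gene that ends 461 bases upstream, had 309, 308 and 285 CPM with overexpression, against 228, 281 and 332 CPM with empty vector. Its groups overlapped and it was not called (log2 fold change 0.10, edgeR adjusted p = 0.695). The read-through gene SENP3-EIF4A1, which ends 751 bases upstream of CD68, spread over the empty vector libraries, at 54.0, 26.9 and 3.54 CPM. CD68 had 32.6 to 34.3 CPM in these libraries. MPDU1, a gene of dolichol sugar use that starts 1415 bases downstream, moved the other way from CD68, with 36.9, 34.3 and 38.5 CPM with overexpression, against 27.4, 30.7 and 29.3 CPM with empty vector (log2 fold change 0.33, edgeR adjusted p = 0.0441). Whether reads from these 3 protein-coding neighbours add to the count of CD68 was not tested.

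The other 5 membrane genes were not called. LAMP2, which encodes a main structural glycoprotein of the lysosome that also serves chaperone-mediated autophagy, had 101, 102 and 97.1 CPM with overexpression, against 111, 111 and 109.6 CPM with empty vector. The groups lay apart for LAMP2 by a small margin (log2 fold change -0.14, SE 0.0438, adjusted p by edgeR 0.0969). LAMP1, its close relative, had a log2 fold change of 0.03 (SE 0.0455), with 284 to 295 CPM with overexpression and 278 to 298 CPM with empty vector. CD63, a tetraspanin of lysosomes and late endosomes and the most abundant of the 6 per length, had 292, 296 and 280.2 CPM with overexpression, against 247, 269 and 291 CPM with empty vector, with overlapping groups (log2 fold change 0.11, SE 0.0632, adjusted p by edgeR 0.357). SCARB2, which carries glucocerebrosidase to the lysosome, had 0.15 (SE 0.140) on the log2 scale, and MCOLN1, the calcium channel TRPML1, had 0.05 (SE 0.0697). The annotated span of MCOLN1 overlaps PNPLA6 on the same strand, which was itself called higher (log2 fold change 0.37, edgeR adjusted p = 0.00882).

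Among the hydrolases and their activator, 1 of 13 genes was called (7.69%, against 5.60% of all genes tested), and it was higher with overexpression. Cathepsin Z, also called cathepsin X, is a cysteine protease that trims amino acids from the carboxyl end of proteins. CTSZ had 531, 506 and 526 CPM with overexpression, against 379, 383 and 397 CPM with empty vector, which is 521 ± 13.2 CPM with overexpression and 386 ± 9.27 CPM with empty vector (SD, n = 3 each). Every overexpression library was far above every empty vector library, relative to the spread within each group. The rise was a log2 fold change of 0.43 (SE 0.0423, adjusted p by edgeR 0.00328), it was called in all 6 fits that left out 1 library, at 0.42 to 0.45, and it had the smallest p of the 47 genes. In TPM, CTSZ had 674 ± 11.9 TPM with overexpression and 515 ± 2.81 TPM with empty vector (SD, n = 3 each). It came next after PSAP among the 47 genes with overexpression, and after PSAP and CD63 with empty vector.

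CTSZ lies on the minus strand of chromosome 20, at 58995185 to 59007247. The 100 bases before its RefSeq start (chr20:59007255-59007354, GRCh38.p14) are shown on the strand of the gene because CTSZ was the gene called higher and its promoter window held none of the motifs above; they hold 81% G and C.
CTSZ upstream: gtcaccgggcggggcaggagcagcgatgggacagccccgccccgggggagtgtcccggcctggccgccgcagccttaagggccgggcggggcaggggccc
NELFCD, a subunit gene of a complex that pauses RNA polymerase II, ends 51 bases from the end of CTSZ on the opposite strand, tail to tail. NELFCD had 216, 198 and 201 CPM with overexpression, against 171, 171 and 175 CPM with empty vector, and it was called higher too (log2 fold change 0.25, SE 0.0476, edgeR adjusted p = 0.0275). Both neighbours were therefore higher with overexpression. The strand setting of the counting is not given in the sources used here, and whether reads that run past the end of NELFCD add to the count of CTSZ, or the reverse, was not tested.

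**Figure D2:**
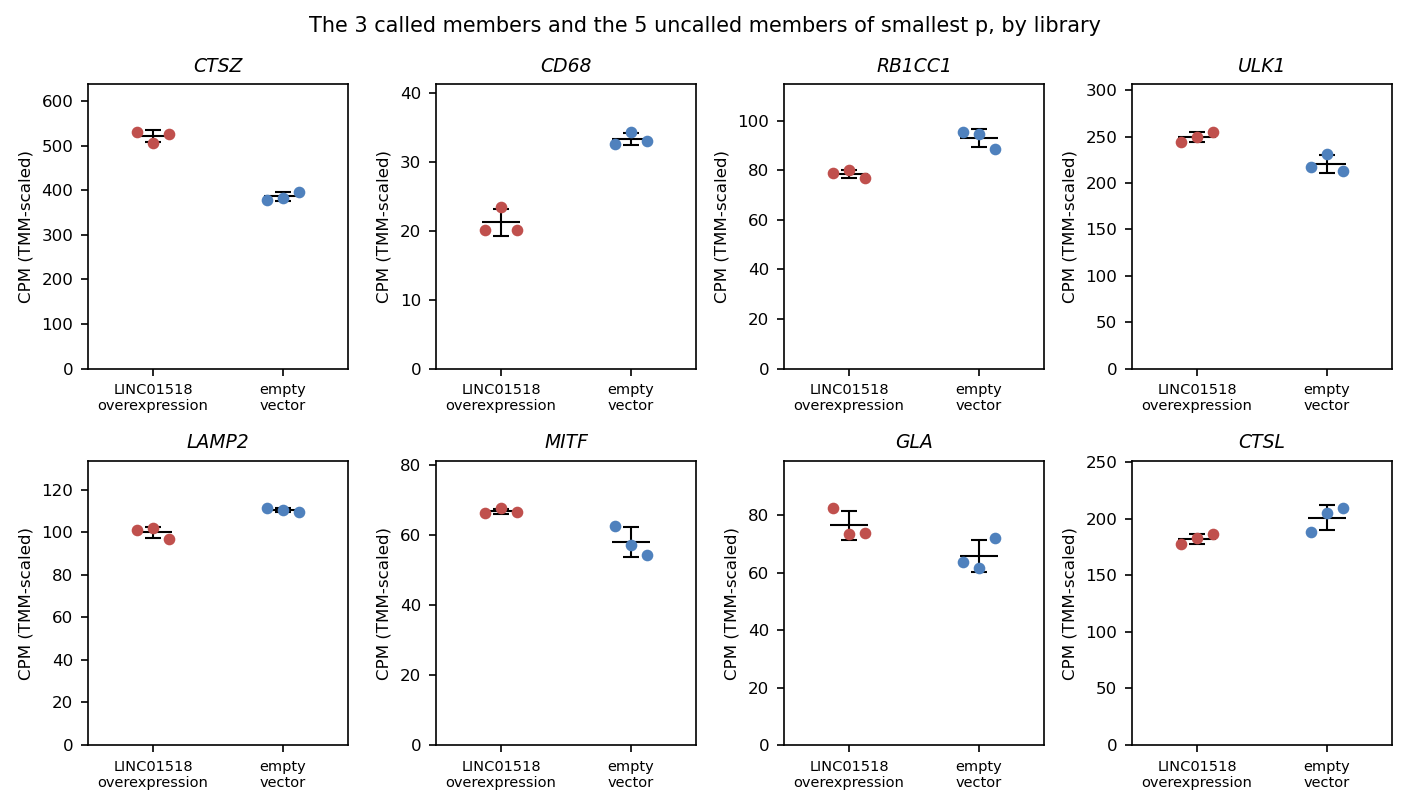
CPM (TMM-scaled) of the 3 called genes and of the 5 uncalled genes with the smallest p, LINC01518 overexpression left and empty vector right, with a point for each library, a bar for the mean and whiskers for the SD. In every panel the 3 libraries of each group lie apart from the other group, and the gap is widest against the spread for CTSZ, with overexpression above, and CD68, with overexpression below.

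The other cathepsins lay on both sides of zero and were not called. CTSL, a cysteine endopeptidase, had 178, 183 and 186 CPM with overexpression, against 188, 205 and 209 CPM with empty vector, and its groups did not overlap (log2 fold change -0.14, SE 0.0521, adjusted p by edgeR 0.160). CTSC, a dipeptidyl peptidase that activates granule proteases in immune cells, was the gene with the lowest level of the 47 per length, and had 7.38, 6.51 and 6.67 CPM with overexpression, against 7.83, 7.78 and 8.62 CPM with empty vector. Its groups lay apart at this low level (log2 fold change -0.24, SE 0.0998, adjusted p by edgeR 0.200). CTSB, the most studied cysteine cathepsin, had a log2 fold change of 0.06 (SE 0.0521), CTSD, the main aspartic protease, -0.05 (SE 0.106), and CTSA, which protects sialidase and beta-galactosidase, 0.07 (SE 0.0470). No second cathepsin gene was therefore called beside CTSZ in either direction, where 5.60% of all genes tested were called. The cathepsin genes are too few to be read against that share.

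Of the glycosidases, GLA, the alpha-galactosidase A that is deficient in Fabry disease, had 82.5, 73.5 and 73.98 CPM with overexpression, against 63.9, 61.5 and 72.2 CPM with empty vector. The groups of GLA came close but did not overlap (log2 fold change 0.22, SE 0.0768, adjusted p by edgeR 0.139). GAA, the acid alpha-glucosidase of glycogen breakdown, had a log2 fold change of -0.04 (SE 0.0661), GLB1, the lysosomal beta-galactosidase, -0.03 (SE 0.135), HEXA, the alpha subunit of beta-hexosaminidase, -0.08 (SE 0.0870), and NEU1, a sialidase, 0.01 (SE 0.123). NAGLU, a glucosaminidase of heparan sulfate breakdown, had 21.4, 22.01 and 19.6 CPM with overexpression, against 19.8, 21.3 and 35.9 CPM with empty vector. The difference in NAGLU of -0.29 (SE 0.240) came with empty vector replicate 3 standing above the other 5 libraries. PSAP, the precursor of the saposins that present lipids to hydrolases, had 2084, 2030.3 and 2038 CPM with overexpression, against 1877, 2099.7 and 2112 CPM with empty vector, and its groups overlapped (log2 fold change 0.02, SE 0.0555, adjusted p by edgeR 0.899).

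None of the 4 V-ATPase genes was called, where 5.60% of all genes tested were. ATP6AP1, an accessory protein of pump assembly, had 159, 151 and 132 CPM with overexpression, against 124, 132 and 138 CPM with empty vector. Its groups overlapped (log2 fold change 0.17, SE 0.0769, adjusted p by edgeR 0.235). ATP6V1A, which encodes the catalytic subunit, had a log2 fold change of -0.03 (SE 0.0418), with 6 libraries between 102 and 106 CPM. ATP6V1H, a regulatory subunit of the cytoplasmic sector, had a log2 fold change of 0.09 (SE 0.0667), and ATP6V0D1, of the membrane sector, 0.03 (SE 0.0645).

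Of the 10 genes of autophagosome initiation and nucleation, 1 was called (10%, against 5.60% of all genes tested) and 4 had an unadjusted p under 0.05 (40.0%, against 23.6%). RB1CC1 (chromosome 8, 52622456 to 52745843) had 78.8, 80.1 and 77.02 CPM with overexpression, against 95.5, 94.5 and 88.7 CPM with empty vector. The groups did not overlap, and the log2 fold change was -0.24 (SE 0.0498, adjusted p by edgeR 0.0347). This call was less stable than those of CTSZ and CD68. Without overexpression replicate 1, 2 or 3, or empty vector replicate 1 or 2, the edgeR adjusted p of RB1CC1 was above the threshold, at up to 0.130, and without empty vector replicate 3 it was 0.0388. The log2 fold change stayed between -0.27 and -0.22 in these fits, and the 3 fits on TPM did not call it.

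ULK1, the kinase that RB1CC1 supports, stood just outside the threshold with the opposite sign. It had 245, 249.5 and 255 CPM with overexpression, against 217, 231 and 213 CPM with empty vector. The lowest overexpression library was above the highest empty vector library (log2 fold change 0.18, SE 0.0467, adjusted p by edgeR 0.0642), and DESeq2 called it (adjusted p = 0.0261). The log2 fold change was 0.08 (SE 0.0763) for its relative ULK2 and 0.05 (SE 0.0472) for ATG13, the adaptor that joins ULK1 to RB1CC1. The 4 genes of this kinase complex thus held 1 that was called lower and 3 that were not called. Over all genes tested 5.60% were called, and 4 genes are too few to be read against that share.

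In the lipid kinase complex, BECN1, its core subunit, had 38.96, 44.3 and 38.3 CPM with overexpression, against 44.96, 44.5 and 48.1 CPM with empty vector. UVRAG, a subunit of the form that acts in endosome and autophagosome maturation, had 41.2, 37.3 and 37.5 CPM with overexpression, against 35.8, 34.02 and 33.6 CPM with empty vector. Both had groups that did not overlap, with BECN1 on the lower side and UVRAG on the higher, and neither was called (log2 fold change -0.18, SE 0.0748, adjusted p by edgeR 0.198 for BECN1 and log2 fold change 0.17, SE 0.0668, adjusted p by edgeR 0.183 for UVRAG). ATG14, the subunit that takes the complex to the forming autophagosome, had a log2 fold change of 0.11 (SE 0.0867). ATG9A, a lipid scramblase carried on the vesicles that seed the membrane, had a log2 fold change of 0.10 (SE 0.0576). The lipid-binding effectors WIPI2 and WIPI1 had log2 fold changes of 0.11 (SE 0.0538) and -0.02 (SE 0.0594).

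None of the 9 genes of the ATG8 family and its conjugation was called, where 5.60% of all genes tested were. ATG16L1, which places the conjugation enzyme on the membrane, had 34.6, 31.2 and 32.7 CPM with overexpression, against 28.2, 26.8 and 30.7 CPM with empty vector, with groups that lay apart (log2 fold change 0.20, SE 0.0759, adjusted p by edgeR 0.163). Its partners ATG5 and ATG12 had log2 fold changes of -0.07 (SE 0.116) and -0.16 (SE 0.0973), the E1-like enzyme gene ATG7 -0.02 (SE 0.0727) and the E2-like enzyme gene ATG3 -0.12 (SE 0.0754). MAP1LC3B and GABARAPL1 spread more between replicates than the other 7. MAP1LC3B, which encodes the LC3 protein most used as an autophagosome marker, had 94.8, 70.8 and 97.98 CPM with overexpression, against 124, 116 and 82.1 CPM with empty vector. The groups overlapped (log2 fold change -0.29, SE 0.202, adjusted p by edgeR 0.452). GABARAPL1 had 80.1, 138 and 177 CPM with overexpression, against 149.8, 60.9 and 162 CPM with empty vector. Within each group GABARAPL1 spread over 2.21-fold with overexpression and 2.66-fold with empty vector, more than any difference between the groups (log2 fold change 0.08, SE 0.503, adjusted p by edgeR 0.944). The log2 fold change of GABARAP was -0.15 (SE 0.1004) and that of GABARAPL2 0.01 (SE 0.0988). Whether reads were shared between MAP1LC3B and its near-identical copy MAP1LC3B2, or among the GABARAP genes, was not tested. The values of these genes are uncertain to that extent.

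The 2 cargo receptors were not called. NBR1, which gathers ubiquitin-tagged cargo, had 255, 277 and 251 CPM with overexpression, against 275, 272 and 259 CPM with empty vector (log2 fold change -0.04, SE 0.0523, adjusted p by edgeR 0.674). OPTN, a receptor for damaged mitochondria and bacteria, had a log2 fold change of 0.09 (SE 0.0512).

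**Figure D3:**
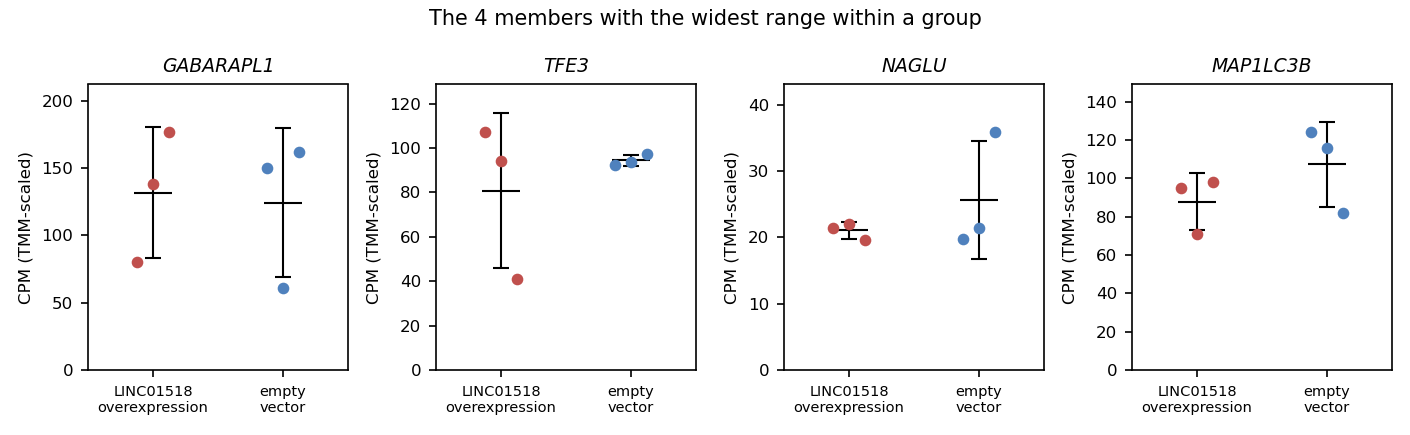
CPM (TMM-scaled) of the 4 genes that spread at least 1.5-fold within a group, LINC01518 overexpression left and empty vector right, with a point for each library, a bar for the mean and whiskers for the SD. The low TFE3 value is overexpression replicate 3, the high NAGLU value is empty vector replicate 3, and GABARAPL1 spreads widely in both groups.

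These 4 genes, TFE3, GABARAPL1, NAGLU and MAP1LC3B, made up 8.51% of the 47. Of the 10537 genes tested whose median count was at least 252, 8.24% spread as widely within a group. Overexpression replicate 3 was the lowest of its group for TFE3 and the highest for GABARAPL1. Empty vector replicate 3 was the highest of its group for NAGLU and GABARAPL1 and the lowest for MAP1LC3B, and empty vector replicate 2 was the lowest for GABARAPL1. The widest fold range within a group had a median of 1.15 over the 47 genes and 1.16 over those 10537.

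By role, the median log2 fold change was 0.11 for the transcription factors, 0.04 for the membrane proteins, -0.03 for the hydrolases, 0.06 for the V-ATPase genes, 0.09 for initiation and nucleation, -0.07 for the ATG8 family and its conjugation and 0.02 for the receptors. The sign for the membrane proteins and the receptors flipped in the TPM fits, that for the receptors also with library size as the only scaling, and those for the receptors, the hydrolases and the ATG8 group without 1 or more single libraries. Of the 23 lysosomal genes, 2 were called (8.70%) with a median of 0.02, and of the 21 autophagy genes 1 was called (4.76%) with a median of 0.0051, where 5.60% of all genes were called. The initiation and nucleation group held 6 of the 15 genes whose groups did not overlap in CPM, 60.0% of its 10 genes. Over all genes tested that share was 31.4%. It was 50% for the receptors, 33.3% for the transcription factors and for the membrane proteins, and 30.8% for the hydrolases. For the ATG8 group it was 11.1%, and for the V-ATPase genes 0%. On the higher side of the initiation group were ULK1, UVRAG, WIPI2 and ATG9A, and on the lower RB1CC1 and BECN1. In TPM the groups of UVRAG, WIPI2 and BECN1 overlapped.

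Levels between genes were compared in TPM, which is scaled for length. Over the 47 genes the mean TPM of the 6 libraries ran from 1757 for PSAP to 6.55 for CTSC, a 268-fold range. The median was 55.6 TPM, against 19.3 TPM for all genes tested. After PSAP came CTSZ at 595 TPM, CD63 at 559 TPM, CTSL at 219.8 TPM, LAMP1 at 209 TPM and CTSA at 201 TPM, so lysosomal genes led the order. Of the 47, 15 genes were at 100 TPM or more, and 3 were under 10 TPM, namely ATG14, ULK2 and CTSC. CD68 stood low in the order at 29.8 TPM and RB1CC1 at 27.3 TPM. The 6 libraries of a gene overlapped those of the next gene in the order for all but 5 of the 46 neighbouring pairs, so most neighbours did not differ beyond their spread. PSAP and CTSZ were 1 of the 5 separated pairs. CTSZ and CD63 overlapped over the 6 libraries, but not within a group. With overexpression CTSZ was higher, at 683, 661 and 679 TPM against 558, 558 and 573 TPM for CD63. With empty vector CTSZ was lower, at 518, 512 and 515 TPM against 529, 557 and 580.0 TPM for CD63.

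**Figure D4:**
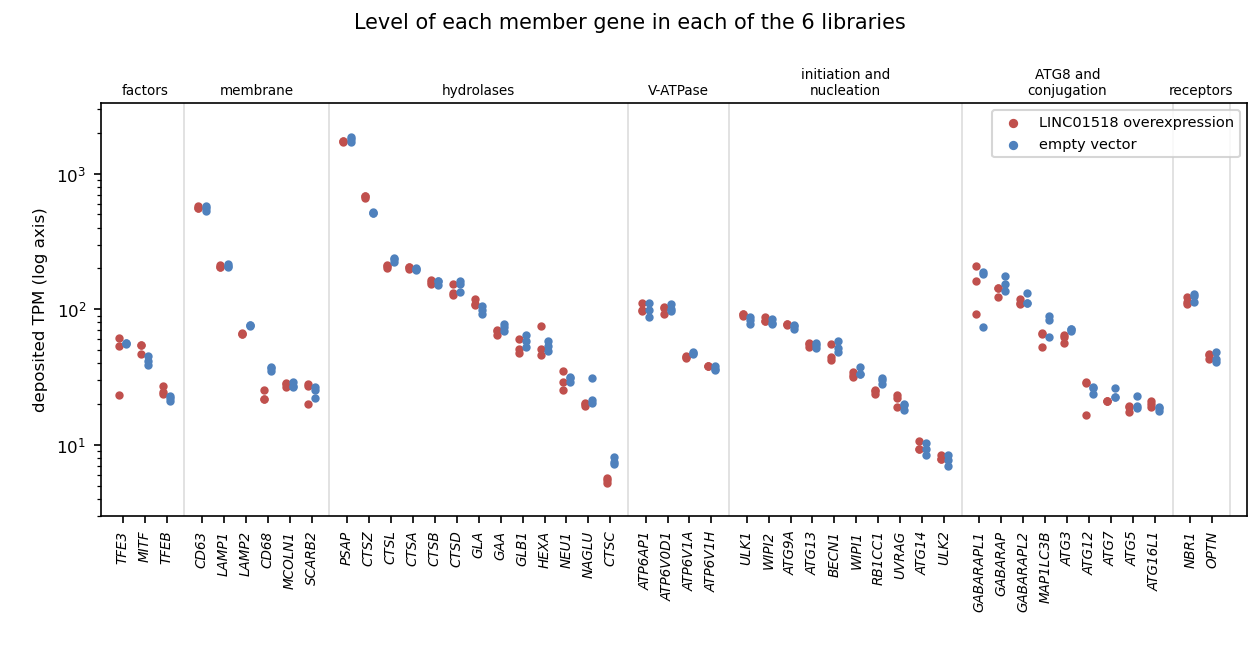
Deposited TPM of each of the 47 genes on a log axis, grouped by role and ordered by mean level within a role, with a point for each library of LINC01518 overexpression (left of each pair) and empty vector (right). PSAP stands alone at the top, CTSC is lowest, and the groups separate visibly for CTSZ and CD68.

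Beyond the 47 genes, 7 lists of other lysosome and autophagy genes held 223 genes, of which 207 were tested. Of these, 10 (4.83%) were called, 7 higher and 3 lower with overexpression, again close to the 5.60% of all genes. At an unadjusted p under 0.05 there were 42 (20.3%), and the median log2 fold change was -0.0093. Of 43 other hydrolases and cofactors 1 was called (2.33%), of 32 other membrane proteins 1 (3.12%) and of 20 other V-ATPase genes 1 (5.0%). Of 36 genes of mTORC1 and lysosomal nutrient sensing 4 were called (11.1%), and of 24 other cargo receptors 3 (12.5%). Of 30 other genes of the autophagy machinery 0 were called, and of 22 genes of sorting and fusion 0. The autophagy machinery list had 2 genes (6.67%) with an unadjusted p under 0.05 and the sorting and fusion list 4 (18.2%). Both shares were below the 23.6% of all genes tested.

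ARSB, arylsulfatase B of dermatan sulfate breakdown, had the largest fold change of the 10 called genes. It had 41.7, 42.2 and 42.5 CPM with overexpression, against 27.6, 27.8 and 26.5 CPM with empty vector, a rise of 0.63 on the log2 scale (SE 0.0577, adjusted p by edgeR 0.00274). It was called in all 6 fits that left out 1 library, but not in the 3 TPM fits, where the adjusted p reached 0.0672.

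The 3 called genes of the receptor list, which serve the removal of specific cargo, were all higher. BNIP3, a hypoxia-inducible receptor for mitochondria, had 137, 146 and 135 CPM with overexpression, against 106, 111 and 107 CPM with empty vector (log2 fold change 0.36, SE 0.0489, adjusted p by edgeR 0.00991). PINK1, the kinase that marks damaged mitochondria, had 153, 143 and 149 CPM with overexpression, against 109.9, 113 and 122 CPM with empty vector (log2 fold change 0.37, SE 0.0542, adjusted p by edgeR 0.0127). NCOA4, the receptor that delivers ferritin, had 298, 303 and 307 CPM with overexpression, against 266, 260.1 and 259 CPM with empty vector (log2 fold change 0.21, SE 0.0392, adjusted p by edgeR 0.0269). The libraries of the groups did not overlap for any of them. BNIP3 was called in all 6 fits that left out 1 library, but not in the TPM fit with no filter (adjusted p by limma 0.0530). PINK1 was not called without overexpression replicate 1 or 3 or empty vector replicate 2, and NCOA4 kept its call only without empty vector replicate 1.

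Of the nutrient-sensing genes, the 2 called sestrins, stress-induced proteins that restrain mTORC1, moved in opposite directions. SESN2 had 39.00, 36.1 and 35.5 CPM with overexpression, against 49.7, 51.3 and 51.4 CPM with empty vector (log2 fold change -0.46, SE 0.0610, adjusted p by edgeR 0.0095). SESN3 had 22.7, 22.6 and 22.5 CPM with overexpression, against 18.4, 15.7 and 15.98 CPM with empty vector (log2 fold change 0.44, SE 0.0813, adjusted p by edgeR 0.0266). SESN2 was called in all 6 fits that left out 1 library, and SESN3 in the fit without empty vector replicate 1 alone. PPP3CA, a catalytic subunit of calcineurin, the phosphatase that acts on TFEB, had 39.2, 41.04 and 39.6 CPM with overexpression, against 32.9, 29.3 and 31.7 CPM with empty vector (log2 fold change 0.35, SE 0.0665, adjusted p by edgeR 0.0276). RRAGA, a GTPase that brings mTORC1 to the lysosome, had 99.7, 92.96 and 98.4 CPM with overexpression, against 75.9, 82.8 and 84.3 CPM with empty vector (log2 fold change 0.26, SE 0.0579, adjusted p by edgeR 0.0431). Both were higher in every overexpression library than in any empty vector library, but PPP3CA kept its call only without empty vector replicate 1, and RRAGA lost it in each of the 6 fits without 1 library.

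The called membrane gene and V-ATPase gene of these lists were both lower. SLC38A9, an arginine sensor of the lysosomal membrane, had 12.6, 10.9 and 10.6 CPM with overexpression, against 15.9, 14.2 and 15.95 CPM with empty vector (log2 fold change -0.44, SE 0.0980, adjusted p by edgeR 0.0442). ATP6V0A2, a subunit of the membrane sector of the pump, had 23.8, 23.6 and 23.8 CPM with overexpression, against 30.5, 29.1 and 30.9 CPM with empty vector (log2 fold change -0.35, SE 0.0603, adjusted p by edgeR 0.0208). The groups did not overlap for either. Of the 6 fits without 1 library, those without empty vector replicate 1 or 2 called ATP6V0A2, and 0 called SLC38A9. NCOA4, SESN3, PPP3CA, RRAGA, SLC38A9 and ATP6V0A2 were not called in any of the 3 TPM fits.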

How the data were processed

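Total RNA was extracted with TRIzol and made into libraries with an Illumina kit, per the labels' protocols. Per the submitters' processing notes, Trimmomatic 0.36, HISAT2, featureCounts of Subread 1.5.1 and DESeq were used with build GRCh38. The deposited counts are whole, unnormalized numbers per gene, and the deposited TPM values are the authors' own, scaled for length and depth. No source used here gives the tool behind the TPM, the annotation or the strand setting, so reads of overlapping genes cannot be told apart. Of the 47 genes, 17 overlap another gene of the table, 12 of them on the opposite strand.

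Symbols were found for 19761 of 20263 genes in a gene name table, and positions are from GENCODE 29. Genes were kept with edgeR 4.0.16 (filterByExpr, minimum count 10, minimum total 15), scaled by TMM and tested on all 6 libraries with a robust quasi-likelihood F test in R 4.3.3, with Benjamini-Hochberg adjustment over all genes and calls under 0.05. Each log2 fold change is overexpression minus empty vector, the SE is its size over the root of F, CPM are TMM-scaled, and each ± is an SD of 3 libraries. The fit was tested on simulated data, where it missed most changes of the smallest size set. Alternatives were other scalings, count filters, DESeq2 1.42.0, voom and limma-trend of limma 3.58.1 (limma-trend on log2(TPM + 0.1) or log2(TPM + 1), for genes with at least 1 TPM in 3 libraries or all genes), a replicate block, and leaving out each library. Promoter sequences are from RefSeq, GRCh38.p14.

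The 47 genes and all lists were chosen with earlier results of these data known. Values per library were given by rule for called genes, the 8 uncalled with the smallest p, the transcription factors and the gene highest in TPM of each role; CTSC, NAGLU and MAP1LC3B were added after their values were seen. At most 12 genes of the other lists were named, those called.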

Additional observations from a re-analysis of the deposited data

How the results depend on the processing

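The calls of CTSZ and CD68 held in all 6 fits without 1 library and in all 11 other alternatives. The number of the 47 genes called was 2 to 3 without 1 library, 4 with DESeq2 and 2 in each TPM fit. The count over all genes was 1316 with DESeq2, against 759 with edgeR. It was 224, 232 and 153 in the TPM fits with a pseudocount of 0.1, with a pseudocount of 1 and with 0.1 and no filter, and 193 to 458 without 1 library, lowest without overexpression replicate 3. With library size as the only scaling the 728 calls divided into 346 higher and 382 lower, against 484 and 275 with TMM, and with TPM into 99 and 125. The count in the 7 other lists was 18 with DESeq2, 3, 3 and 2 in the TPM fits in the same order, and 3 to 9 without 1 library.

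Same-numbered libraries of the 2 groups had correlations of deviations of 0.037, 0.055 and 0.045, all under 0.1, so the numbers were not taken to pair the libraries, although each library correlated best with its own number. With the replicate number as a block, 232 genes were called, with 2 of the 47 genes (CTSZ and CD68) and 4 in the other lists (ARSB, BNIP3, PINK1 and SESN2). RB1CC1 had an adjusted p by edgeR of 0.0781 there.

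The median log2 fold change of the initiation group was 0.0563 with library size only, 0.0565, 0.0531 and 0.0565 in the TPM fits and 0.0481 to 0.11 without 1 library. That of the receptors was -0.0260 in each TPM fit and -0.0014 to 0.0448 without 1 library. That of the membrane proteins was 0.0063 with library size only, and -0.0060, -0.0060 and -0.0060 in the TPM fits. That of the V-ATPase genes was 0.0076, 0.0075 and 0.0076 in the TPM fits and 0.0125 to 0.0815 without 1 library, and that of the hydrolases was -0.0443 to 0.0446 without 1 library. The motif count was 10 with 6 letters and 2 with 10 letters. Only the genes named by rule were followed gene by gene through these fits. Among these, signs reversed for TFE3, GABARAPL1 and PSAP, none of them called. TFE3 had 0.0906 without overexpression replicate 3, in a range of -0.483 to 0.0906 without 1 library. GABARAPL1 had -0.19 without overexpression replicate 3 and -0.25 without empty vector replicate 2, in a range of -0.25 to 0.342 without 1 library. PSAP had -0.0167 with library size only, -0.0385 in each TPM fit and -0.0405 without empty vector replicate 1. Other genes also differed in sign between the edgeR log2 fold change and the log2 ratio of mean TPM. Among them were HEXA (-0.0780 against 0.0940) and LAMP1 (0.0253 against -0.0187). The median over all genes of a fit moved too, from -0.0035 with TMM to -0.0356 with library size only. In the TPM fits it was -0.0460, -0.0432 and -0.0450, and without 1 library it was -0.0054 to -0.0016. The cause of these shifts was not tested. With 3 libraries a group, even a sizeable change in a gene that spreads widely could go uncalled. The 95% interval of the log2 fold change was -1.25 to 1.42 for GABARAPL1 and -1.21 to 0.76 for TFE3.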

Other observations

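The deposited TPM and the counts did not always tell the same about a library. ATG12 had 16.6, 28.9 and 28.8 TPM with overexpression, against 26.5, 23.9 and 26.8 TPM with empty vector, so that overexpression replicate 1 stood below the other 5, whereas its counts gave 29.8, 31.9 and 32.2 CPM with overexpression, against 40.2, 31.6 and 33.01 CPM with empty vector, where that library lay close to the other overexpression libraries. HEXA had 51.2, 75.3 and 45.8 TPM with overexpression, against 49.01, 53.6 and 58.8 TPM with empty vector, with overexpression replicate 2 highest, whereas its counts gave 87.4, 91.97 and 80.01 CPM with overexpression, against 80.2, 95.5 and 98.1 CPM with empty vector. These genes were chosen after their values were seen.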
